A study of Mus musculus with 12 samples.

Results

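Desmin, the small heat shock proteins and the chaperones that work with them were examined for binding of the transcription factors Meis1 and Hoxb13 in the mouse heart. The group holds 9 of the 21887 protein-coding genes of the RefSeq gene table, namely Des, Flnc, Cryab, Hspb1, Hspb7, Hspb8, Hspa8, Dnajb6 and Bag3. Its members were taken by gene symbol, as the peaks that the authors' annotation assigns to one of these names in the Meis1 list or in the Hoxb13 list. The 2 lists gave 13 Meis1 peaks at 8 of the genes and 26 Hoxb13 peaks at all 9.

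Desmin is the intermediate filament protein of muscle, which ties the Z-discs of neighbouring myofibrils to each other and to mitochondria, nucleus and cell membrane. Z-disc proteins that unfold under load, filamin C among them, are held by small heat shock proteins and handed to the Hsp70 chaperone, and BAG3 links the small heat shock protein HSPB8 to Hsp70 so that damaged clients reach autophagy. Mutations of DES, CRYAB, FLNC, BAG3 and DNAJB6 cause human myopathies or cardiomyopathies marked by protein aggregates or a disordered Z-disc.

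Binding was mapped by chromatin immunoprecipitation and sequencing in ventricles of CD-1 mice at postnatal day 15, with no genotype or treatment named beyond the strain. The 12 libraries form 4 groups of 3, which are a Meis1 precipitate, its input chromatin, a Hoxb13 precipitate and its input chromatin. Per the protocol, 3 hearts gave the replicates, 1% of the sheared chromatin was set aside as input, and the rest was divided between 1 antibody per factor. The descriptions number the hearts alike for both factors, while the titles number the Meis1 libraries 1 to 3 and the Hoxb13 libraries 4 to 6, so it was not settled whether the factors were mapped in the same hearts. A ventricle holds cardiomyocytes, fibroblasts, vascular and other cells, so a peak cannot be given to 1 cell type.

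The values are 2 peak lists, each made by the authors over 3 libraries, with 30534 Meis1 peaks and 22284 Hoxb13 peaks. No value per library is given, so there is no spread between hearts and no test for any value below, and read depth is unknown. Peak strength is the authors' value per peak in a column without a name, taken as the signal field from its place in the common peak format, and every strength and percentile below rests on that reading. It ranks peaks within a list and does not compare the factors, and it is given with its percentile, which is its rank from the weakest peak up, as a percentage of that list. A promoter peak is a peak of the authors' promoter class, which lies within 1 kb of a transcription start site. Distances are from the gene start in the direction of transcription, coordinates are 1-based on mm10, and most peaks have a fixed width of 284 bp for Meis1 and 396 bp for Hoxb13.

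Both factors had peaks at nearly every gene of the group, and at 6 of the 9 genes both had one in the promoter class, within 1 kb of a start. A Meis1 peak was assigned to 8 of the 9 genes, the exception being Dnajb6, where 38.2% of all protein-coding genes had one. A Hoxb13 peak was assigned to all 9, against 44.4% of all genes, and peaks of both factors to 8, against 23.9%. The promoter class held Meis1 peaks of 6 genes (Des, Cryab, Hspb7, Hspb8, Bag3 and Hspa8), against 8.16% of all genes. It held Hoxb13 peaks of the same 6 genes and of Flnc, which makes 7 against 30.7%. Promoter peaks of both factors were thus present at 6 of the 9 genes, against 4.70% of all genes. In the stronger 50% of each list 3 genes (Des, Cryab and Hspa8) kept promoter peaks of both, against 3.07% of all genes. These counts were not tested, since the genes were chosen with earlier results of the same lists known.

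**Figure D1:**
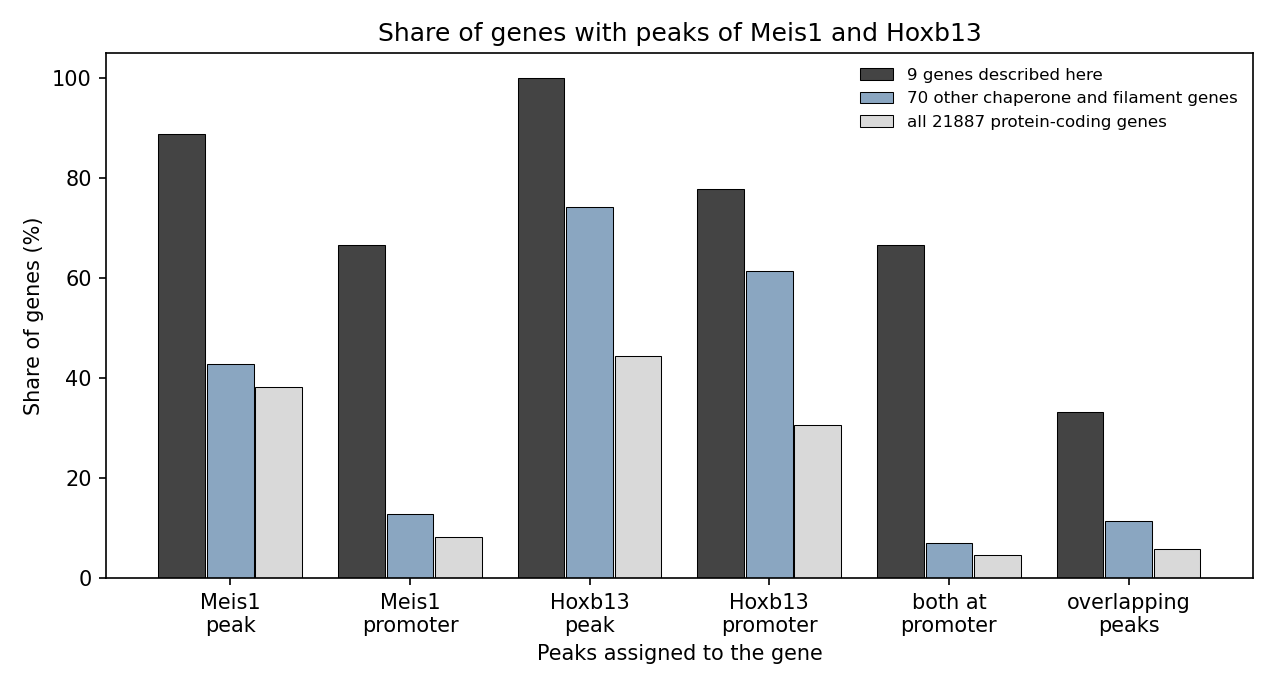
Share of genes (%, y axis) with peaks of each kind (x axis), for the 9 genes described here, for 70 other chaperone and filament genes and for all 21887 protein-coding genes. For promoter peaks of both factors the bars stand at 66.7%, 7.14% and 4.70%.

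By peaks rather than genes, 8 of the 13 Meis1 peaks were in the promoter class, which holds 6.73% of the whole Meis1 list. The median distance of these 13 peaks from a start site was 0.688 kb, against 58.2 kb over the list. Of the 26 Hoxb13 peaks 11 were in the promoter class, which holds 40.3% of that list, so here the share was near that of the list as a whole. Of the other Hoxb13 peaks 9 were intergenic, 2 lay in 3' UTRs, 2 in exons, 1 in an intron and 1 just downstream of a gene. The other Meis1 peaks were 3 intergenic and 2 intronic. Hoxb13 peaks were more numerous than Meis1 peaks at 6 of the 9 genes, against 27.5% of all genes, the exceptions being Flnc and Hspb8, with equal numbers, and Bag3, with more of Meis1. Within 10 kb of the start this held for 4 genes (Des, Cryab, Hspb7 and Hspa8), against 29.3% of all genes. In the stronger 50% of each list it held for 5, against 19.6%, and with overlapping peaks merged for 6, against 26.8%.

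**Figure D2:**
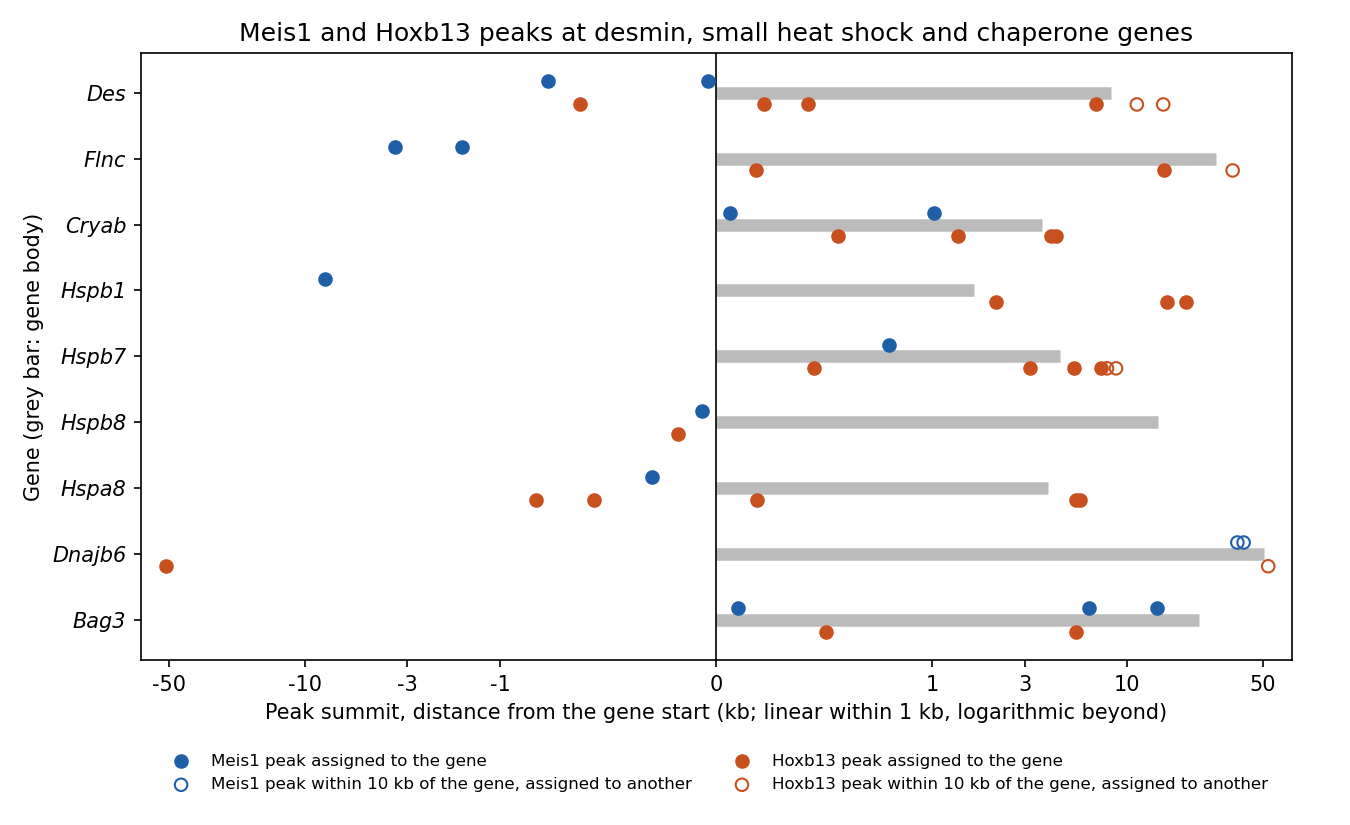
Position of every peak summit relative to the gene start (x axis, kb, linear within 1 kb and logarithmic beyond) at each gene (y axis), with the gene body as a grey bar, Meis1 in blue and Hoxb13 in orange. Filled points are peaks assigned to the gene and open points are peaks within 10 kb of it that the authors assigned to another gene, which include 2 Meis1 peaks inside Dnajb6.

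The promoters of Des and Hspb8 are shown because a Meis1 summit falls inside the 250 bases before their start. The sequences are from RefSeq (GRCm38.p6, the assembly behind mm10), 5′ to 3′ on the strand of the gene, and capitals mark TGACAG, the core of the Meis recognition sequence, or its reverse complement CTGTCA. The Des stretch is chr1:75360042-75360291 on the plus strand and the Hspb8 stretch is chr5:116422865-116423114 on the minus strand.
Des: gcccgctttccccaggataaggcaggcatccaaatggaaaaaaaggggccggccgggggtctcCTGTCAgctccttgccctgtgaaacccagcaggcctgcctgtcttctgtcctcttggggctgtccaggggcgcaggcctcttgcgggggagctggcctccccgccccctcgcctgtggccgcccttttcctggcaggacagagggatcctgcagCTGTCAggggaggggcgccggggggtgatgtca
Hspb8: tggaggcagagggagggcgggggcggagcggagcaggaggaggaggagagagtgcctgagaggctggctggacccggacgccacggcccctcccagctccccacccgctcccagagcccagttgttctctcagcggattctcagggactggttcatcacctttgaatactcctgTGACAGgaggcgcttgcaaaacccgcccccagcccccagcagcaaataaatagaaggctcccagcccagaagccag

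In both promoters a TGACAG match lay close to the Meis1 summit. In Des the match from -33 to -28 was 9.5 bp from the summit, and the one from -187 to -182 shared its last base with the edge of the peak. In Hspb8 the match from -76 to -71 was 7.5 bp from the summit and lay inside the Hoxb13 peak as well. The summit of a fixed-width peak is its midpoint. Of 32817 promoter windows of this length 15.9% held TGACAG on either strand, and of the 810 with a Meis1 summit inside 48.0% did. The median distance from summit to match, over 356 Meis1 summits in windows that held a match, was 16 bp, and 33.7% were within 10 bp. Promoters of 7 of the 9 genes were matched in the table, and Cryab and Hspa8 were not. Des and Hspb8 were the 2 of these 7 with TGACAG.

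Des, which encodes desmin (chromosome 1, 75360292 to 75368579), had 2 Meis1 and 4 Hoxb13 peaks. Both Meis1 peaks and 2 of the Hoxb13 peaks formed 2 overlapping pairs in the promoter class. The distal pair joined a Meis1 peak from 75359370 to 75359653 (strength 34.4, percentile 85.9) and a Hoxb13 peak from 75359462 to 75359857 (strength 24.3, percentile 65.8). They shared 192 bp, and their summits were at -780 and -632 bp from the start. The proximal pair joined a Meis1 peak across the start, from 75360110 to 75360393 (strength 32.6, percentile 84.5), and a Hoxb13 peak from 75360317 to 75360712 (strength 23.8, percentile 63.3). These shared 77 bp. In each pair the Hoxb13 summit lay downstream of the Meis1 summit, by 148 bp in the distal and 263 bp in the proximal pair. The third Hoxb13 promoter peak (strength 20.0) shared 194 bp with its Hoxb13 neighbour, and the fourth, from 75367025 to 75367420 (strength 22.4), lay in the 3' UTR.

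Flnc encodes filamin C, the muscle filamin that crosslinks actin at the Z-disc (chromosome 6, 29433153 to 29461889). Here the factors were apart. Both Meis1 peaks lay upstream and outside the promoter class, from 29431436 to 29431719 (strength 49.6, percentile 91.7), 1.434 kb from the start, and from 29429540 to 29429823 (strength 22.5, percentile 70.4), 3.33 kb from it. A Hoxb13 peak from 29433138 to 29433533 (strength 25.7, percentile 71.1) covered the start, and a weaker one (strength 20.3, percentile 40.7) lay in exon 22 of 48. The nearest summits of the factors were 1758 bp apart.

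Among the small heat shock genes, Cryab encodes αB-crystallin, which binds desmin and keeps its filaments from aggregating (chromosome 9, 50745951 to 50756636 in RefSeq, with the authors' start at 50752971). It had 2 Meis1 and 4 Hoxb13 peaks, and the factors alternated along the first part of the gene without overlap. From the start onwards there was a Meis1 peak from 50752891 to 50753174 (strength 29.9, percentile 82.2), then Hoxb13 from 50753338 to 50753733 (strength 23.9, percentile 63.8). Next came Meis1 from 50753844 to 50754127 (strength 19.3, percentile 54.9) and Hoxb13 from 50754130 to 50754525 (strength 22.9, percentile 59.1), which the annotation places in exon 3 of 4. The gaps between these neighbours were 163, 110 and 2 bp. The other 2 Hoxb13 peaks, of strength 18.8 and 22.1, shared 145 bp with each other just past the end of the gene. Hspb2, a small heat shock gene that lies within the longer RefSeq model of Cryab and 537 bp from the first Meis1 peak, had 0 peaks of either factor by assignment.

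Hspb7 encodes a small heat shock protein of heart and muscle that binds filamin C (chromosome 4, 141420779 to 141425310). It carried the strongest Meis1 peak of the group, from 141421467 to 141421688, with a strength of 191, which ranked 224 in the list (percentile 99.3). This peak was 222 bp wide, and it was the 1 Meis1 peak of the 13 without the fixed width. Its summit lay 799 bp downstream of the start. The nearest Hoxb13 peak, from 141421033 to 141421428, was weak (strength 18.8, percentile 19.1) and ended 38 bp before it. The strongest of the 4 Hoxb13 peaks, from 141425928 to 141426323 (strength 39.4, percentile 92.3), lay 0.618 kb past the end of the gene, and the others had strengths of 20.4 (3' UTR) and 21.2 (intergenic).

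Hspb8 encodes the small heat shock protein that BAG3 holds (chromosome 5, 116408491 to 116422864, minus strand), and it had 1 peak of each factor, both over the start. The Meis1 peak ran from 116422788 to 116423071 (strength 38.1, percentile 87.9) and the Hoxb13 peak from 116422844 to 116423239 (strength 21.1, percentile 47.6). They shared 228 bp, and the summits were 112 bp apart, which was the closest pair of the group.

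Hspb1, which encodes the small heat shock protein HSP25, called HSP27 in human (chromosome 5, 135887919 to 135889563), had no promoter peak of either factor. Its Meis1 peak lay 7.825 kb upstream, from 135879811 to 135880094 (strength 49.1, percentile 91.6). Its nearest Hoxb13 peak began 0.287 kb past the end of this short gene, from 135889850 to 135890245 (strength 28.1, percentile 77.9). The remaining Hoxb13 peaks were 15.788 kb (strength 18.2) and 19.802 kb (strength 29.3) from the start, and the farther one lay 0.263 kb from the end of Ywhag, a 14-3-3 protein gene. The summits of the factors were at least 10095 bp apart.

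Hspa8 encodes the constitutive Hsp70 chaperone, Hsc70 (chromosome 9, 40801276 to 40805202), and it had 5 listed Hoxb13 peaks beside 1 of Meis1. Of the 5, 4 formed 2 pairs that shared 126 and 122 bp, so that 3 were left once overlapping peaks were merged, against 4 at Hspb7. The Hoxb13 peaks were also among the strongest here. Those at 40800242 to 40800637 and 40800512 to 40800907 had strengths of 46.8 and 41.2 (percentiles 95.7 and 93.3), and a further peak covered the start (strength 28.1, percentile 77.8). Past the gene end there was another pair, of strength 39.3 and 26.9. The Meis1 peak, from 40800832 to 40801115 (strength 27.9, percentile 80.2), lay between the upstream Hoxb13 peaks and the one at the start. It shared 76 bp with the upstream neighbour and was 150 bp from the downstream one.

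Bag3 encodes the cochaperone that joins Hsp70 to HSPB8 (chromosome 7, 128523583 to 128546981), and it was the gene with the most Meis1 peaks, 3, all of modest strength. The Meis1 peak over the start, from 128523543 to 128523826, had a strength of 16.6 (percentile 22.5), close to the lowest value of the list, 15.6. The other 2, of strength 20.4 and 19.3 (percentiles 62.0 and 55.2), were in intron 1 of 3, 6.205 and 14.131 kb from the start. Hoxb13 had a stronger promoter peak from 128523893 to 128524288 (strength 31.0, percentile 83.6), which began 66 bp after the Meis1 peak ended, and an intron 1 peak (strength 21.4). That intronic Hoxb13 summit was 855 bp from the nearest Meis1 summit.

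Dnajb6 encodes a J protein that delivers clients to Hsp70 and suppresses aggregation (chromosome 5, 29735898 to 29786478). By assignment it had no Meis1 peak and 1 distant Hoxb13 peak, 51.808 kb upstream, from 29683695 to 29684090 (strength 22.0, percentile 53.8), which was 7.618 kb from the gene Ube3c. However, 2 Meis1 peaks lay inside its gene body, in intron 8 of 9, from 29772722 to 29772815 (strength 62.8, percentile 94.2) and from 29775467 to 29775750 (strength 18.8, percentile 51.4). The authors assigned both to Gm5129, a predicted gene on the opposite strand whose start is 38 bp from that of Dnajb6. The first of these peaks lay at -36.786 kb from the start of Gm5129, which is transcribed away from it, and 36.824 kb from that of Dnajb6. A Hoxb13 peak from 29788827 to 29789222 (strength 20.2), just past the end of Dnajb6, was assigned to Gm5129 as well.

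**Figure D3:**
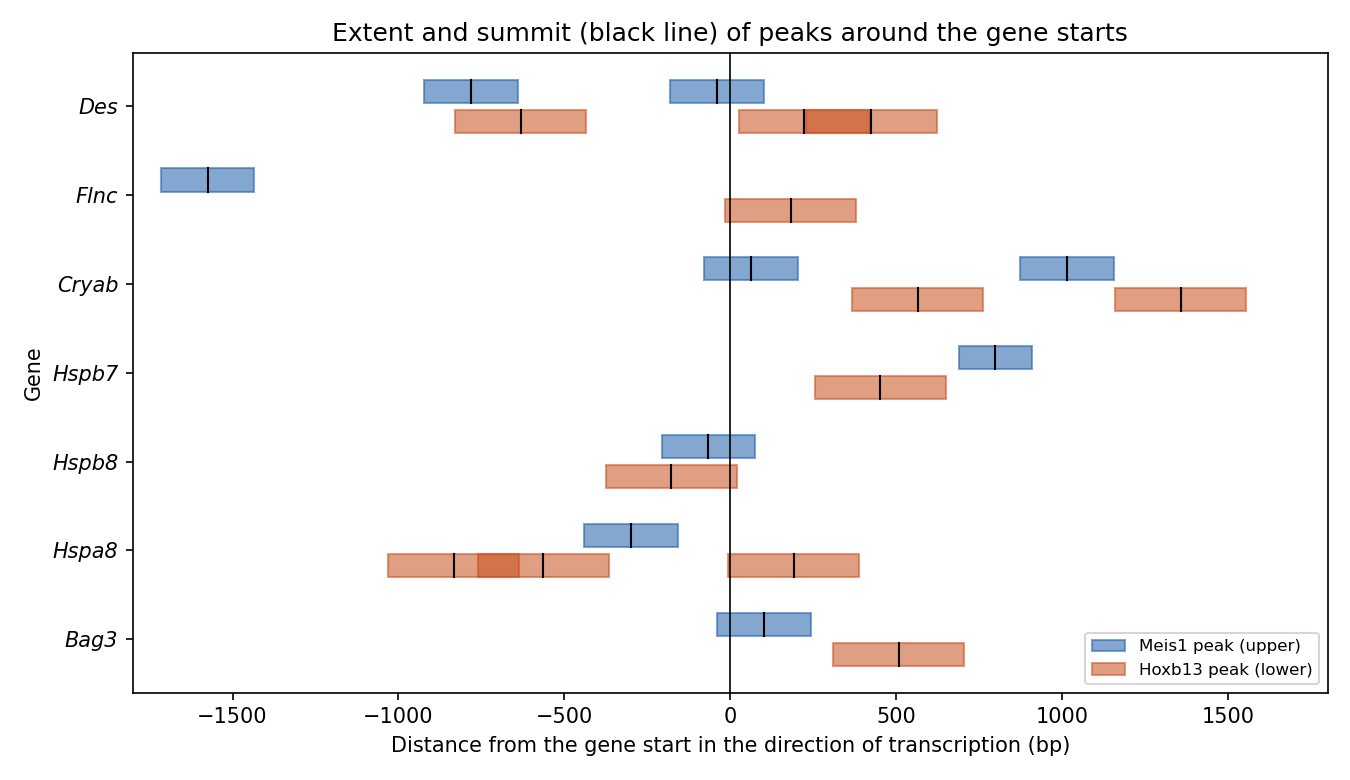
Extent of Meis1 peaks (blue, upper) and Hoxb13 peaks (orange, lower) around the start of 7 genes (y axis), in bp in the direction of transcription (x axis), with summits as black lines and darker areas where Hoxb13 peaks overlap each other. Hspb1 and Dnajb6 are left out because they have no peak in this range, and the factors overlap at Des, Hspb8 and Hspa8 and lie beside each other at Cryab, Hspb7 and Bag3.

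Overlap of at least 1 bp between the factors was found at 3 of the 9 genes, Des, Hspb8 and Hspa8, against 5.89% of all genes. At the other 3 genes with promoter peaks of both, Hspb7, Bag3 and Cryab, the closest promoter peaks were separated by 38, 66 and 110 bp. Among the 1028 genes with promoter peaks of both factors, 63.6% had an overlapping pair, with a median of 241 bp between the nearest summits. In the 6 genes here the median was 305.5 bp and the range 112 to 450 bp. The order of the nearest promoter pair was not fixed, with Hoxb13 downstream of Meis1 at 2 genes (Des and Bag3) and upstream at 4. The overlap depended on its definition, since 1 gene, Hspb8, met a reciprocal overlap of 50% and 0 had summits within 100 bp. The share over all genes was not computed under these stricter definitions.

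**Figure D4:**
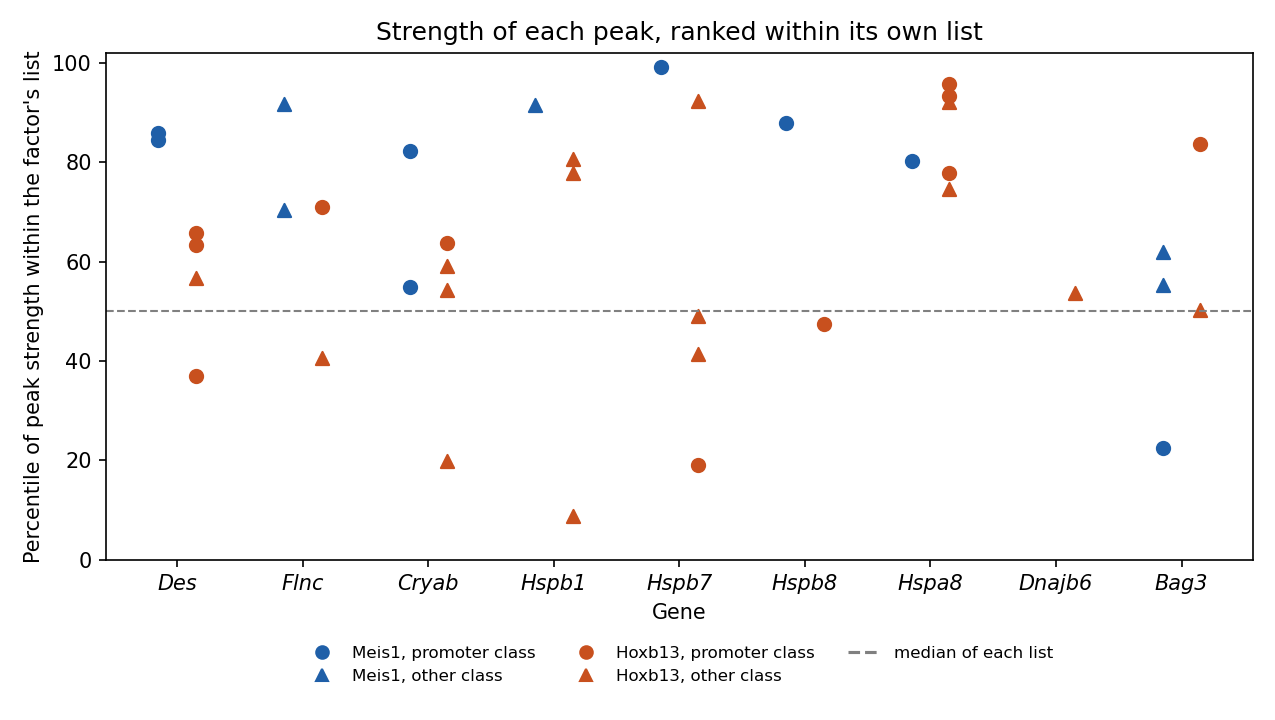
Percentile of each peak's strength within the list of its factor (y axis) by gene (x axis), with circles for promoter peaks, triangles for other peaks and a dashed line at the median of each list. Of the 13 Meis1 peaks 12 lie above the line, the exception being the promoter peak of Bag3, and of the 26 Hoxb13 peaks 18 do.

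The Meis1 peaks of these genes were mostly in the upper part of their list. Their median strength was 29.9, against 18.7 over the list, and their median percentile was 82.2, with a range from 22.5 to 99.3. The Hoxb13 peaks were nearer the middle, with a median strength of 23.4, against 21.4 over the list, and percentiles from 8.89 to 95.7 around a median of 61.2. At Hspa8 the 5 Hoxb13 peaks ranged from the percentile of 74.7 to that of 95.7. Hoxb13 had 4 or more peaks at 4 genes (Des, Cryab, Hspb7 and Hspa8), against 5.17% of all genes. With overlapping Hoxb13 peaks merged, 1 gene, Hspb7, kept 4, against 4.61% of all genes, and in the stronger 50% of the list 1 gene, Hspa8, did, against 1.53%. For Meis1, 2 or more peaks were assigned to 4 genes (Des, Cryab, Bag3 and Flnc), against 18.8%.

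The heat shock element, to which heat shock factors bind, was looked for in the same promoter windows as GAA and TTC in either order with 2 bases between, on both strands, and in its 3-unit form, in which a further unit of alternating orientation is added. Hspb1 and Dnajb6 were the genes with a match in these 250 bases, and 4 of the 7 had one when the 50 bases past the start were included. Neither of the 2 had a peak of either factor over the window, and neither did Hspb7, which had no match. Their stretches are shown to give the position of the matches, Hspb1 as chr5:135887669-135887838 and Dnajb6 as chr5:29735798-29735897, both on the plus strand, with heat shock matches in capitals. In Hspb1 the first capitals mark CAATAAA, a sequence that Hoxb13 prefers.
Hspb1: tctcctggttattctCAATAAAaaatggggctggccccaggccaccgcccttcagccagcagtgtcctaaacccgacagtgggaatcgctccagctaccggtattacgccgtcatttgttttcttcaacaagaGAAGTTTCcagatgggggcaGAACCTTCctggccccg
Dnajb6: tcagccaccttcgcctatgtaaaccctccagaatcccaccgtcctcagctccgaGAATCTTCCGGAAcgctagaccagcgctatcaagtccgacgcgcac

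The shorter heat shock form was present in 12.8% of all promoter windows and the 3-unit form, found in Dnajb6 alone among the 7 promoters, in 0.466%. The 3-unit match in Dnajb6 contains both of its shorter matches. CAATAAA was in 4.20% of all windows and in 2.22% of the 2071 with a Hoxb13 summit, and TCGTAAA, the other Hoxb13 sequence searched, in 0.478% and 0.483%. Neither lay under a Hoxb13 peak in these 7 promoters. The composite TGATTNAT and the CArG box were found in none of the 7, against 2.83% and 1.47% of all windows. A loose form of the MEF2 box, CTA and TAG with any 4 bases between, matched in Flnc as CTAAGACTAG (3.20% of all windows). It matched in 2 of the 7 with the 50 bases past the start. Because any bases were allowed in the middle, such a match need not be a MEF2 site. GGGCGG, the GC box, was in 6 of the 7, Hspb7 being the exception, against 32.7% of all windows and 70.2% of those with a Hoxb13 summit. The 7 windows were 53.6% (Hspb7) to 67.2% (Des) G and C, against a median of 52.4% over all promoters. The letters are a description of these windows and show no binding by themselves.

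Around these members, 70 other genes of the same machinery were counted. A Meis1 peak was assigned to 30 of them (42.9%) and a Hoxb13 peak to 52 (74.3%), beside 38.2% and 44.4% of all genes. Promoter peaks of Meis1 were present at 9 (12.9%, against 8.16% of all genes) and of Hoxb13 at 43 (61.4%, against 30.7%). Promoter peaks of both were present at 5 (7.14%, against 4.70%), which were Hspa13, Dnajb5, Dnajc3, Sqstm1 and Lmna.

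Class counts stand beside all genes, of which 44.4% had a Hoxb13 peak, 38.2% a Meis1 peak and 23.9% both. For promoter peaks the shares were 30.7% for Hoxb13 and 8.16% for Meis1. The classes are small, and several counts were near these shares, such as Meis1 at 5 of 14 Hsp70 and Hsp110 genes. By class, J protein genes had Hoxb13 at 13 of 15, each with a promoter peak, and Meis1 at 8. Each gene with Hoxb13 also had a Hoxb13 promoter peak among Hsp70 and Hsp110 (10 genes), Hsp90 and chaperonin (3) and heat shock factor genes (2). In the small heat shock, cochaperone and autophagy, and filament and linker classes 2 of 4, 7 of 10 and 6 of 10 did. Genes of the Hsp70 and Hsp110 family had Hoxb13 at 10 of 14 and Meis1 at 5, and the stress-induced Hspa1a and Hspa1b had 0 peaks of either factor. The copies Hspa1a and Hspa1b are nearly identical, so reads there may not be placed uniquely. Of 6 Hsp90 and chaperonin genes 3 had Hoxb13, 2 had Meis1 and 0 had both, with a strong Hoxb13 promoter peak at Hsp90b1, the endoplasmic reticulum Hsp90 (strength 92.4, percentile 99.1), and a strong Meis1 peak at Trap1, the mitochondrial Hsp90 (strength 131, percentile 98.2). Of 6 other small heat shock genes 4 had Hoxb13 and 2 had Meis1, with a Meis1 promoter peak assigned to 0. One of the 6, Hspb2, lies 537 bp from a Meis1 promoter peak that was assigned to Cryab. Cochaperone and autophagy genes had Hoxb13 at 10 of 14 and Meis1 at 6. Hsf1, the main heat shock factor, had no peak, while Hsf2 had 1 of Meis1 and 3 of Hoxb13. Of 12 intermediate filament and linker genes 10 had Hoxb13 and 6 had Meis1, and Plec, which encodes the linker plectin, had 8 Hoxb13 peaks and 0 of Meis1.

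Overlapping peaks of the factors were found at 8 of the 70 genes (11.4%, against 5.89% of all genes), namely Hspa9, Dnajb5, Dnajc3, Hspa4, Cryaa, Dnajb12, Hspa13 and Dnaja4. In the stronger 50% of each list 5 genes had them, against 3.23% of all genes, and within 10 kb 5 did, against 3.90%. Summits were closest at Hspa13, an Hsp70-like protein of microsomes, where they were 7 bp apart at the promoter. Its 1 Hoxb13 peak had a strength of 19.6 (percentile 31.8), and its strongest Meis1 peak one of 19.0 (percentile 52.5). At Hspa9, the mitochondrial Hsp70, there were 3 overlapping pairs among 3 Meis1 and 8 Hoxb13 peaks. Hspa9, Hspa4, Cryaa, Dnajb12 and Dnaja4 had 0 Meis1 promoter peaks. The strongest Meis1 peak lay at -67.7 kb from the start for Hspa9, -8.52 kb for Hspa4, 69.0 kb for Cryaa, 21.4 kb for Dnajb12 and 1.22 kb for Dnaja4. Dnajc3, a J protein of the endoplasmic reticulum, had a Meis1 promoter peak of strength 60.8 (percentile 93.9). Sqstm1, the autophagy receptor p62, had promoter peaks of both factors without overlap, with strengths of 33.8 for Meis1 and 35.5 for Hoxb13. Lmna, which encodes lamin A and C, had promoter peaks of both as well, and 2 Meis1 and 5 Hoxb13 peaks in all.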

How the data were processed

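The members and gene lists were chosen with earlier results of these data known. The submitters' processing notes name the mm10 build, Bowtie2 2.2.3 (a read aligner), Picard, deepTools 1.6 and ChIPseeker, without roles. Which peak caller and threshold were applied, and how libraries were merged, is not given in the sources used here. For each factor the authors deposited 1 annotated peak list. Its signal value per peak (peak strength) and its score carry only a column number per the file headers, and the score entered no result. Depth per library is unknown, and input libraries entered no comparison.

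Peaks were taken by the authors' gene symbol. Percentiles are mean ranks within a list, and summits are peak start plus the deposited offset. Genes were matched to RefSeq (GRCm38.p6) by Entrez identifier. Motifs were searched in RefSeq promoters, on both strands, in place of the planned search under peaks, for which no genome was used. Named genes are the members, neighbours with a peak between them and a member, and those of 70 other genes with overlapping peaks or promoter peaks of both factors, up to 12 by the weaker percentile (10 qualified). Others were named after their values were seen. Python 3.11.15 with pandas 2.3.3 was used, and the overlap code was tested on simulated peaks. No test over samples was possible.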

Additional observations from a re-analysis of the deposited data

How the results depend on the processing

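No paired analysis was possible because the lists hold no value per library, and for the same reason no replicate could be left out. With summits required within 100 bp, 0 members had overlapping peaks of both factors in place of 3, and with a reciprocal overlap of 50% 1 did. Neither count has a share over all genes beside it. In the stronger 50% of each list, members with promoter peaks of both factors went from 6 to 3, against 3.07% of all genes. Members with 4 or more Hoxb13 peaks went from 4 to 1, against 1.53%. Merging overlapping peaks also took the latter from 4 to 1, against 4.61% of all genes. Of the 70 other genes, 5 in place of 8 had overlapping peaks in the stronger 50%, against 3.23% of all genes. Within 10 kb it was 5 as well, against 3.90% of all genes. In the stronger 50% of each list, 8 members kept a Meis1 peak and 8 a Hoxb13 peak (Hspb8 lost its own), and 7 had both. Overlap remained at 2, against 3.23% of all genes. For the counts of members with a Meis1 peak, a Hoxb13 peak or both in the stronger lists, the share over all genes was not computed. A limit of 10 kb around the start lowered the count of Hoxb13 peaks from 26 to 22 and that of Meis1 from 13 to 12. When every peak within 10 kb of the gene body was counted whatever its assigned gene, there were 15 Meis1 and 29 Hoxb13 peaks, and all 9 members had both, Dnajb6 going from 0 to 2 Meis1 peaks. That window grows with gene length, and the share over all genes was not computed for it, so no excess can be read from this count. Merging overlapping peaks of a list left 22 Hoxb13 and 13 Meis1 peaks. The alternatives for counts of 4 or more Hoxb13 peaks, 2 or more Meis1 peaks, more Hoxb13 than Meis1 peaks and promoter peaks of both factors, for the 70 genes and for the promoter windows were chosen after the data were seen. Of the 70 genes, 26 and 20 had a Meis1 peak in place of 30, for the stronger 50% and for 10 kb. A Hoxb13 peak was present at 44 and 49 in place of 52. For these counts of genes with a Meis1 or a Hoxb13 peak, the shares over all genes were not computed. Over the whole 300 bases of the promoter table, which include 50 bases past the start, 2 members held TGACAG. The shorter heat shock form was held by 4 in place of 2 and the loose MEF2 form by 2 in place of 1. Depth could not be weighed, since no read counts were used.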

Other observations

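Speg, the gene next to Des on chromosome 1, encodes a kinase of striated muscle, and it held peaks of both factors as well. It had 4 Meis1 peaks, 2 of them in the promoter class, the strongest in an intron from 75393322 to 75393519 (strength 166, percentile 98.9). Its 5 Hoxb13 peaks included 4 of the promoter class, with strengths up to 42.1, and 0 overlapped a Meis1 peak. Between Des and Speg a further Hoxb13 peak of strength 18.1 was assigned to the predicted gene Gm15179. Downstream of Hspb7 a run of Hoxb13 peaks continued with 2 assigned to Srarp (strengths 18.9 and 21.4). Dnajb9, a J protein gene of the endoplasmic reticulum, had 21 Meis1 peaks, with 0 in the promoter class and the strongest (strength 63.3) 1149 kb from the start.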
